A study of Mus musculus with 26 samples.

Results

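Livers that carried little B-lineage RNA were compared between lighting conditions in female Eµ-MYC mice. Their transgene puts MYC under the immunoglobulin heavy chain enhancer, which is active in B-lineage cells, so that the liver can hold lymphoid cells. The libraries were chosen by Cd79a, the gene of a B cell receptor signalling subunit, and all female libraries under 8 CPM (counts scaled to a common library total) were kept. These were 11 of the 26 liver libraries of the series and 11 of its 16 female libraries. Of them, 6 came from females kept in 12 h of light and 12 h of dark (12:12 libraries 1, 2, 3, 4, 5 and 8) and 5 from females kept in chronic jet lag lighting (jet lag libraries 1, 3, 4, 7 and 8), each for 8 weeks. Cd79a ran from 2.19 to 2.95 CPM in the kept females, and the lowest female library left out had 14.5 CPM. All animals carried the transgene, so no wild type liver was among the controls. Each library is labelled as 1 numbered animal, and p-values measure only the spread between these libraries. The shifting schedule, the age of the mice, their health and the time of day of sampling were not stated in the labels.

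**Figure D1:**
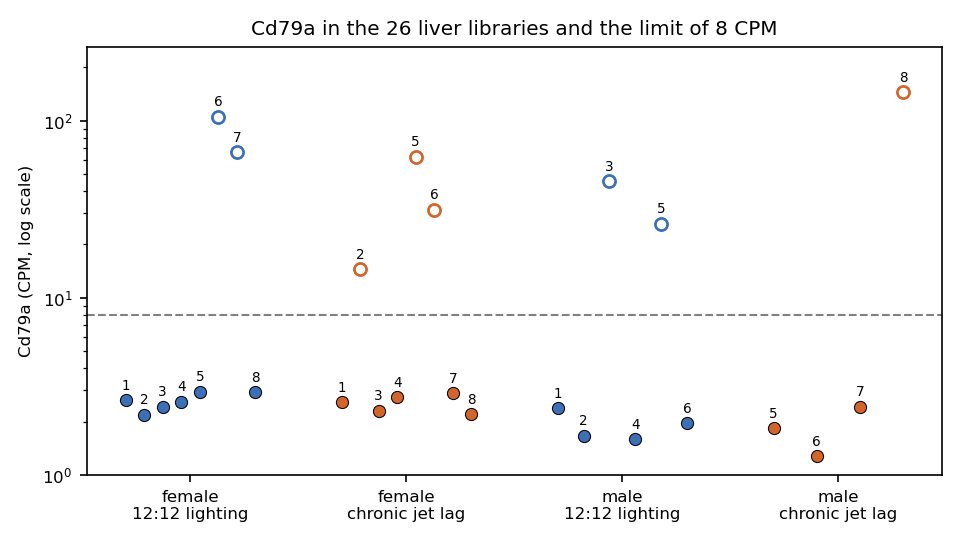
Cd79a level (CPM, log axis) of each of the 26 liver libraries by sex and lighting, numbered as in the labels. The dashed line is the limit of 8 CPM, filled points were kept and open points were left out. The 11 kept females lie between 2.19 and 2.95 CPM, and the nearest female above the line is jet lag library 2 at 14.5 CPM.

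The liver clock is a feedback loop. BMAL1 (gene Arntl) pairs with CLOCK or NPAS2, binds E-boxes and drives Per, Cry, Nr1d1, Nr1d2 and Dbp, whose products feed back on it: PER and CRY block the BMAL1 complex, and the REV-ERB receptors made from Nr1d1 and Nr1d2 repress Arntl through elements that the ROR receptors activate. In liver this loop also drives metabolic genes, among them Nampt, whose product limits the rate of NAD salvage, and a single sample shows each gene at the phase that animal had when it was taken.

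The 11 libraries held 46835930 to 50242014 counts each, and a count of 0 allows at most 0.0641 CPM (3 counts, counting error only). Albumin (Alb) took 121449 to 144122 CPM and all 20 hepatocyte identity genes were detected. The summed B-lineage markers ran from 52.6 to 83.6 CPM under 12:12 lighting and from 61.4 to 72.4 CPM under jet lag, and no marker of the 28 was at 0 throughout. In the 5 females left out this sum was 174.7 to 918.8 CPM. Of 12 pancreatic acinar markers, 7 were at 0. Xist was 575 to 1060 CPM and Ddx3y was at 0 in all 11. Mitochondrial transcripts took 54964 to 61823 CPM under 12:12 lighting and 59080 to 64693 CPM under jet lag, and their part in the results was not tested.

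Arntl, Npas2, Clock and Nfil3 were higher in most jet lag livers, and Nampt, Wee1, Usp2, Dbp and Tef, whose groups did not overlap, were lower in all 5. No gene passed an adjusted p of 0.05 by edgeR, which is the test these results rest on. Of the 15533 genes that passed the low count filter 0% were called, the smallest adjusted p was 0.0761, and 1588 genes (10.2%) had an unadjusted p under 0.05, 790 higher and 798 lower under jet lag. DESeq2 on the same libraries called 94 genes higher (0.605%) and 72 lower (0.464%), all 166 with an unadjusted p under 0.05 by edgeR, and limma-voom called 0. By edgeR 36 genes passed without jet lag library 8, 3 without jet lag library 1, 2 without 12:12 library 8 and 0 without any of the other 8 libraries. In 109 genes (0.702%) every jet lag library lay above every 12:12 library, and in 83 (0.534%) every one lay below. Those splits used CPM scaled by TMM. On CPM without TMM they were 187 and 51, where the median gene stood at 0.061 on the log2 scale in place of 0.0083. Levels below are TMM-scaled CPM, differences are log2 fold changes of jet lag over 12:12 lighting with their standard error (SE), and adjusted p-values are from edgeR unless DESeq2 is named.

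The activators of the clock come first. Arntl was at 0.747, 0.764, 1.04, 0.496, 1.55 and 0.690 CPM in 12:12 libraries 1, 2, 3, 4, 5 and 8, and at 10.3, 33.8, 2.68, 3.38 and 2.03 CPM in jet lag libraries 1, 3, 4, 7 and 8. All 5 jet lag livers lay above all 6 controls, and library 3 stood far above the rest. The means were 0.880 ± 0.370 (SD, n = 6) and 10.4 ± 13.5 CPM (SD, n = 5), a log2 fold change of 3.57 (SE 0.80, adjusted p = 0.184 by edgeR and 0.000855 by DESeq2). Without jet lag library 3 it was 2.38 (adjusted p = 0.145 by edgeR). Npas2 was at most 0.214 CPM under 12:12 lighting, with a median of 0.0719 CPM and no count in library 3. Under jet lag it was at 1.13, 8.64, 0.705, 0.520 and 0.205 CPM in the same order. Jet lag library 8 lay inside the range of the controls and the other 4 above it. The log2 fold change was 4.49 (SE 1.12, adjusted p = 0.226 by edgeR, 0.00692 by DESeq2), with few or no counts in each control library, and it was 2.69 without jet lag library 3. Clock, at 4.77 to 11.1 CPM in the controls with a median of 8.69, was at 14.9, 26.4, 17.5, 13.7 and 8.43 CPM, so that 4 of 5 jet lag libraries exceeded every control (0.94, SE 0.26, adjusted p = 0.251 by edgeR, 0.0182 by DESeq2). Without jet lag library 8 the adjusted p by edgeR was 0.0848 for Arntl, 0.0982 for Npas2 and 0.0549 for Clock. As library 8 was the lowest jet lag liver for each of these genes, leaving it out widens the differences, and this is not separate support.

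**Figure D2:**
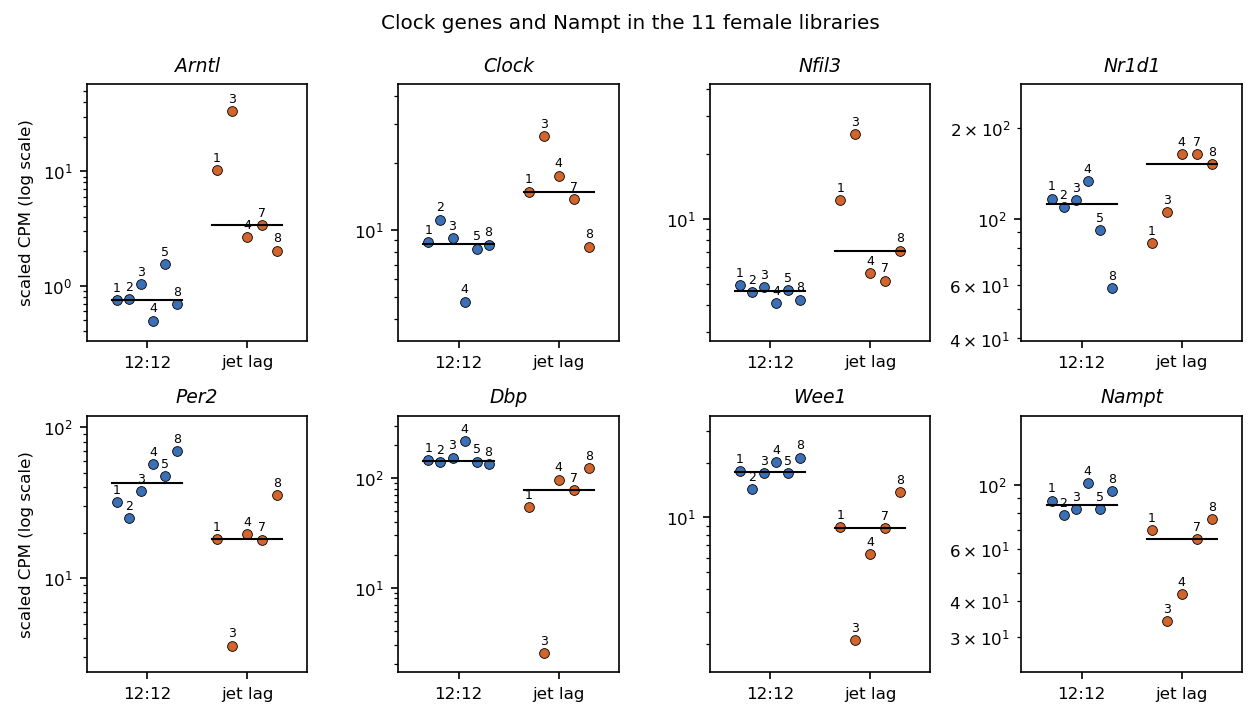
Levels (TMM-scaled CPM, log axes) of 8 clock-linked genes in the 6 12:12 libraries (blue) and the 5 jet lag libraries (orange), numbered as in the labels. Horizontal bars are group medians. Jet lag library 3 is the highest point for Arntl, Clock and Nfil3 and the lowest for Per2, Dbp, Wee1 and Nampt, and jet lag library 8 lies closest to the controls, or among them, for Arntl, Clock, Per2, Dbp, Wee1 and Nampt.

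Promoters of Arntl, Nfil3 and Ciart are shown because Arntl and Nfil3 lay above every control and Ciart lay far below them in 4 of 5 livers, and because the REV-ERB and ROR element and the E-box are the sites through which the loop acts. Nfil3 and Ciart were chosen after their values were seen. The stretches run from 250 bases before to 50 bases after the start site in the RefSeq promoter table of GRCm38.p6, on the gene's strand, 5′ to 3′. Capitals mark TAGGTCA, the core of the ROR element, in Arntl (chr7:113207261-113207560, plus strand, first base at 31) and its reverse complement in Nfil3 (chr13:52980990-52981289, minus strand, first base at -12), and CACGTG, the E-box, in Ciart (chr3:95882179-95882478, minus strand, first bases at -116, -58 and -44).
Arntl: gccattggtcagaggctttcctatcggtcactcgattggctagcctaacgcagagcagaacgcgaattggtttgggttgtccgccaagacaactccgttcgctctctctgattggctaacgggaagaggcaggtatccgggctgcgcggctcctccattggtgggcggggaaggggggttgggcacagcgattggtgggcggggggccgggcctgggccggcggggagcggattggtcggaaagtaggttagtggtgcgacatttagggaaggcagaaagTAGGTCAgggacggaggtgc
Nfil3: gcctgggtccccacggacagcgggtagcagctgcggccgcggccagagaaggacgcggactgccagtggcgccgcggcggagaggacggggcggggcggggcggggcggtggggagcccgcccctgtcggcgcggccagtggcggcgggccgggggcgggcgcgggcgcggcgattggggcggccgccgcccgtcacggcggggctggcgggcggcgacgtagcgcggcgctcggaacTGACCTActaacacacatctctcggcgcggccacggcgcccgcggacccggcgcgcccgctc
Ciart: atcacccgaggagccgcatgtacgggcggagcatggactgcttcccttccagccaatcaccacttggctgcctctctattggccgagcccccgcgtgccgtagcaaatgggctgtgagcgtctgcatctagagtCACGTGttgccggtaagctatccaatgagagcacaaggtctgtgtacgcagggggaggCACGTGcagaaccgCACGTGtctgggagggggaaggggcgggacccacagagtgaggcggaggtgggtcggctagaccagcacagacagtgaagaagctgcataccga
Of 32851 promoters in the table, searched on both strands, 2.61% hold TAGGTCA, 7.15% CACGTG and 1.06% the D-box as TTATGTAA or TTACGTAA. Of 21 clock genes with an entry, TAGGTCA is in Arntl and Nfil3, CACGTG in Bhlhe41, Ciart, Cry1, Per1 and Tef, and the D-box in Per3. The stretches of Npas2 and Nampt hold none of these letters, and the upstream start of Arntl listed in the table (chr7:113207215-113207514) does not reach the element. A match is a description of letters and not a measured site.

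Among the receptors that act on Arntl, Nr1d1 ran against Nr1d2. Nr1d1 (REV-ERB alpha) was at 58.9 to 133 CPM in the controls and at 83.0, 105, 164, 164 and 152 CPM under jet lag, with libraries 4, 7 and 8 above every control and 1 and 3 inside their range (0.36, SE 0.22, adjusted p = 0.622). It overlaps Thra, and how shared reads were assigned is not known here. Nr1d2 (REV-ERB beta) was at 52.0 to 69.0 CPM against 46.3, 17.4, 43.5, 47.6 and 53.9 CPM, lower than every control in all but library 8 (-0.53, SE 0.22, adjusted p = 0.435). Rora, a gene of an opposing activator, was at 10.5 to 18.9 against 13.2 to 16.1 CPM (-0.07, SE 0.13), and Rorb had no count in any library.

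All 5 genes of the PER and CRY repressors had negative log2 fold changes, and none passed by edgeR or DESeq2. Per2 was at 31.9, 25.0, 37.8, 57.1, 47.2 and 69.6 CPM in the 12:12 libraries and at 18.2, 3.58, 19.5, 18.0 and 35.6 CPM in the jet lag libraries. Only jet lag library 8 reached the range of the controls, and library 3 was the lowest of all. The means were 44.8 ± 16.6 (SD, n = 6) and 19.0 ± 11.3 CPM (SD, n = 5), and the log2 fold change was -1.24 (SE 0.48, adjusted p = 0.424). Per1 was at 40.9 to 66.4 CPM against 16.8, 3.07, 17.5, 33.0 and 56.8 CPM (-1.07, SE 0.55, adjusted p = 0.557), again with library 8 among the controls. Per3 split the jet lag livers: libraries 1 and 8, at 51.5 and 52.4 CPM, lay within the controls' 39.0 to 71.2 CPM, while libraries 4, 7 and 3 were at 20.4, 22.7 and 1.93 CPM (-0.94, SE 0.61, adjusted p = 0.652). The cryptochromes differed least, Cry1 by -0.36 (SE 0.26) and Cry2 by -0.40 (SE 0.18, adjusted p = 0.482).

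Dbp, Tef and Hlf encode PAR bZIP activators that bind D-boxes, and Nfil3 encodes a repressor of the same sites. Nfil3 was at 4.93, 4.56, 4.83, 4.07, 4.66 and 4.22 CPM in the controls and at 12.3, 24.8, 5.60, 5.16 and 7.14 CPM under jet lag. The groups did not overlap, although libraries 4 and 7 lay just above the controls (1.27, SE 0.37, adjusted p = 0.271 by edgeR, 0.0868 by DESeq2), and without library 3 the log2 fold change was 0.73. Dbp was at 145, 139, 153, 215, 140.2 and 134 CPM against 54.3, 2.54, 96.3, 77.9 and 123 CPM. Every jet lag liver was below every control, from close to them in library 8 to the lowest value in library 3 (-1.12, SE 0.65, adjusted p = 0.614). Its span overlaps that of Sphk2. Tef was also lower in every jet lag liver, at 72.3 to 95.2 CPM against 51.6, 10.1, 40.6, 46.3 and 72.1 CPM (-0.86, SE 0.37, adjusted p = 0.472). Hlf was at 21.5 to 33.8 CPM against 14.5 to 22.6 CPM (-0.40, SE 0.13, adjusted p = 0.318).

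Of 10 further genes listed as E-box clock outputs, all 10 had negative log2 fold changes, 7 at an unadjusted p under 0.05 by edgeR (10.2% of all genes in either direction), and 1, Nampt, passed by DESeq2 (0.464% of all genes, lower). Whether each of the 10 is driven through an E-box was not tested. Nampt (chromosome 12, 32820335 to 32853369 on GRCm38.p6) was at 88.1, 78.7, 82.4, 101, 82.6 and 94.9 CPM in the controls and at 69.8, 34.2, 42.1, 64.9 and 76.0 CPM under jet lag. No jet lag liver reached the lowest control, and libraries 3 and 4 had the least. The means were 87.9 ± 8.50 (SD, n = 6) and 57.4 ± 18.2 CPM (SD, n = 5), a log2 fold change of -0.62 (SE 0.18, adjusted p = 0.265 by edgeR, 0.0495 by DESeq2). The noncoding gene Gdap10 lies inside the Nampt span and had -0.68 (SE 0.29). Wee1, the gene of a kinase that restrains CDK1, was at 14.3 to 21.3 CPM against 8.82, 2.09, 6.25, 8.73 and 13.7 CPM with no overlap (-1.19, SE 0.34, adjusted p = 0.271). Usp2, a deubiquitinase gene, was at 27.7 to 44.4 CPM against 9.58, 1.14, 6.51, 9.85 and 25.3 CPM, also apart (-1.65, SE 0.56, adjusted p = 0.374). Ciart, a repressor of the BMAL1 complex, was at 14.5 to 28.4 CPM in the controls and at 3.00, 0.102, 1.98, 4.84 and 20.9 CPM under jet lag (-1.65, SE 0.81, adjusted p = 0.539). Library 8 thus lay among the controls while the others were at a fraction of their level.

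The remaining 6 genes of that list were the repressors Bhlhe41 (-1.59, SE 0.53) and Bhlhe40 (-0.81, SE 0.35), the nocturnin gene Ccrn4l (-1.40, SE 0.49), Por, whose product passes electrons to microsomal P450 enzymes (-0.58, SE 0.20), Rgs16, which restrains G protein signals (-0.17, SE 0.64), and the glucocorticoid target Tsc22d3 (-0.07, SE 0.10). Por was at 761 to 1017 CPM in the controls and at 889, 336, 533, 519 and 772 CPM under jet lag, so libraries 1 and 8 lay among the controls and libraries 3, 4 and 7 below them. Rgs16 was at 16.4 to 70.4 CPM in the controls and 3.44 to 58.2 CPM under jet lag, with library 3 the lowest, and the sign of its difference turned without 12:12 library 3 (0.05) or jet lag library 3 (0.12).

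The clock genes as a group were lower, with their activators higher. Of 27 genes in the 5 clock lists, 26 passed the filter, 5 with positive and 21 with negative log2 fold changes and a median of -0.55, against 0.0083 over all genes. At an unadjusted p under 0.05 by edgeR 4 were higher (Arntl, Clock, Npas2 and Nfil3) and 12 lower, where 10.2% of all genes reached that level in either direction, and none passed adjustment. The groups did not overlap in 2 higher (Arntl and Nfil3) and 5 lower (Dbp, Tef, Usp2, Wee1 and Nampt), against 0.702% and 0.534% of all genes. Without jet lag library 3 the median was -0.45, with 4 higher and 14 lower at that level, and without jet lag library 8 it was -0.66, again with 4 and 14.

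The 5 jet lag livers were unlike each other in how far their clock genes stood from the controls. In library 3, 23 of 26 clock genes lay outside the range of the 6 controls (4 above, 19 below), in library 7 22, in library 4 21, in library 1 17 and in library 8 8. Over all genes the share outside the range was 35.1% in library 3, 31.1% in 7, 28.8% in 4, 39.2% in 1 and 26.7% in 8. Each control set against the other 5 had 2 to 14 clock genes and 22.9% to 45.2% of all genes outside. The median distance of a clock gene from the control mean, in log2 units without sign, was 2.80 in library 3, 0.908 in 4, 0.749 in 7, 0.650 in 1 and 0.246 in 8, while the controls themselves ran from 0.159 to 0.345. Library 8 thus lay within the spread of the controls by this measure, and the other 4 above it.

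**Figure D3:**
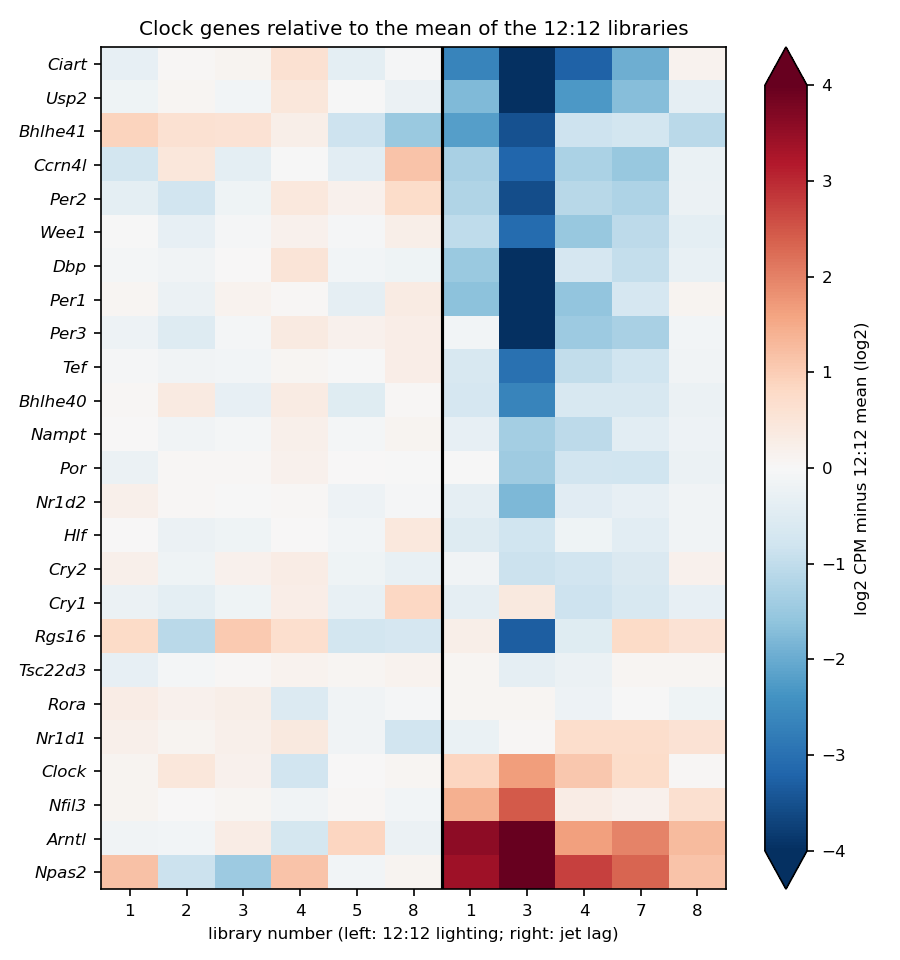
Difference of each library from the mean of the 12:12 libraries (log2 CPM, prior count 2, color scale from -4 to 4, values beyond it drawn at its ends) for 25 of the 26 clock genes that passed the filter. Columns are libraries, with the 12:12 libraries left and the jet lag libraries right of the black line. Jet lag library 3 has the deepest colors and library 8 the palest of the 5.

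The libraries also differed in kind and not just in size. Libraries 1 and 3 combined the highest Arntl (10.3 and 33.8 CPM) and Nfil3 (12.3 and 24.8 CPM) with Nr1d1 in the range of the controls, whereas libraries 4, 7 and 8 had the lowest Arntl of the 5 and Nr1d1 above every control. Library 1 kept Per3 and Por among the controls although Per1, Per2 and Dbp were below them. The spread within a group was described by the SD of log2 CPM. The SD under jet lag exceeded that under 12:12 lighting in 25 of 26 clock genes (96.2%), with a median ratio of 2.50, against 7707 of 15533 genes (49.6%) and a median ratio of 0.994. A wider spread was not particular to clock genes. It was also seen in 18 of 20 glucocorticoid response genes (median ratio 1.77), 17 of 20 hepatocyte identity genes (1.72) and 12 of 14 growth hormone axis genes (1.41). Other lists went the other way, such as the endothelial markers (0 of 20, median ratio 0.37). The ratio was 9.02 for Dbp, 8.69 for Nfil3, 7.51 for Ciart, 7.50 for Tef, 6.52 for Usp2 and 6.18 for Per1, and 0.45 for Rora. Much of this rested on 1 liver: without jet lag library 3 the median ratio was 1.39 and 15 of 26 were above 1, against 0.987 and 49.2% over all genes. Without any other single library it was 2.46 to 3.18.

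Metabolic genes that passed by DESeq2 included steps in the storage of glycogen and the synthesis of NAD and heme. None of the genes in these lists passed by edgeR. Gys2 (chromosome 6, 142422612 to 142473130), which encodes liver glycogen synthase, was at 400.1, 277, 326, 449, 271 and 507 CPM in the controls and at 159, 101, 181, 187 and 263 CPM under jet lag. The groups did not overlap, and the highest jet lag value, in library 8, came close to the lowest controls. The means were 372 ± 96.1 (SD, n = 6) and 178 ± 58.6 CPM (SD, n = 5), a log2 fold change of -1.06 (SE 0.23, adjusted p = 0.140 by edgeR, 0.000725 by DESeq2). Without jet lag library 8 edgeR gave -1.25 with an adjusted p of 0.0445. As library 8 was the jet lag liver closest to the controls, leaving it out widens the difference, and this is not separate support. Of the other 15 measured glycogen genes, Ppp1r3c, which targets phosphatase to glycogen, had 0.85 (SE 0.31, adjusted p = 0.386) and Ppp1r3e had -0.55. The list as a whole had 8 positive and 8 negative values, with a median of -0.02.

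Alas1 encodes the first and rate-limiting enzyme of heme synthesis, and Clpx a mitochondrial chaperone that acts on the ALAS protein. Alas1 was at 845, 1195, 1145, 1248, 1279 and 1836 CPM in the controls and at 437, 129.6, 639, 413 and 682 CPM under jet lag, with no overlap and the lowest value in library 3 (-1.45, SE 0.37, adjusted p = 0.242 by edgeR, 0.00280 by DESeq2). Clpx was at 56.7 to 86.1 CPM against 149, 369.7, 137, 142 and 77.8 CPM. Here libraries 1, 3, 4 and 7 lay above every control and library 8 among them (1.31, SE 0.33, adjusted p = 0.234 by edgeR, 0.0247 by DESeq2), and without library 3 the log2 fold change was 0.84. Among 14 heme synthesis genes, 1 was higher and 5 lower at an unadjusted p under 0.05 by edgeR (10.2% of all genes in either direction). Beside Clpx and Alas1 these were Alad (-0.21), Urod (-0.20), the glycine carrier gene Slc25a38 (-0.18) and the mitochondrial transporter gene Abcb10 (-0.29), and the median was -0.13. Tfrc, the transferrin receptor gene, counted here as an erythroid marker, had -0.63 (SE 0.20, adjusted p = 0.284). Of 9 measured erythroid markers 8 had negative log2 fold changes (median -0.56). The list summed to 827 to 4672 CPM under 12:12 lighting and 992 to 2062 CPM under jet lag, with Rhag at 0, and their part in these values was not tested.

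In NAD synthesis, Nmrk1, the gene of nicotinamide riboside kinase, was at 13.1 to 21.2 CPM in the controls and at 16.4, 6.20, 7.78, 9.83 and 10.9 CPM under jet lag. Library 1 lay among the controls and the other 4 below them (-0.77, SE 0.22, adjusted p = 0.255 by edgeR, 0.0296 by DESeq2). With Nampt it was 1 of 2 lower genes among the 23 of that list at an unadjusted p under 0.05 by edgeR, a level that 10.2% of all genes reached in either direction. Acmsd, which diverts tryptophan from NAD (0.53, SE 0.19), and Pnp, a purine nucleoside phosphorylase gene (0.33, SE 0.14), were higher at that level, and the median of the 23 genes was -0.09.

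Of glucose and fat metabolism, Pdk4, whose kinase shuts pyruvate dehydrogenase, was at 1.24 to 2.65 CPM in the controls and at 34.1, 14.3, 1.96, 4.58 and 3.55 CPM under jet lag. Library 1 had the highest value, library 4 lay among the controls, and the log2 fold change was 2.65 (SE 0.72, adjusted p = 0.265 by edgeR, 0.0139 by DESeq2). Without library 1 it was 1.71 (adjusted p = 0.325 by edgeR). The catalytic subunit of glucose-6-phosphatase (G6pc) had 1.44 (SE 0.54, adjusted p = 0.406), its partner transporter Slc37a4 had -0.39 (SE 0.12, adjusted p = 0.265) and the glucose transporter Slc2a2 had -0.30. Insig2, which holds SREBP precursors in the endoplasmic reticulum, was at 21.0 to 37.1 CPM against 46.6, 87.1, 52.99, 46.3 and 31.9 CPM (0.90, SE 0.22, adjusted p = 0.193 by edgeR, 0.00598 by DESeq2), above the controls in all but library 8. Stard4, a cholesterol carrier gene that SREBP drives, was at 47.98 to 67.8 CPM against 43.5, 36.8, 47.1, 40.1 and 47.3 CPM, narrowly apart (-0.44, SE 0.11, adjusted p = 0.167 by edgeR, 0.0300 by DESeq2). Elovl5, a fatty acid elongase gene, had 0.52 (SE 0.13) and also passed by DESeq2. The 22 genes of cholesterol synthesis had a median of 0.03 and the 16 of fatty acid synthesis one of -0.09.

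**Figure D4:**
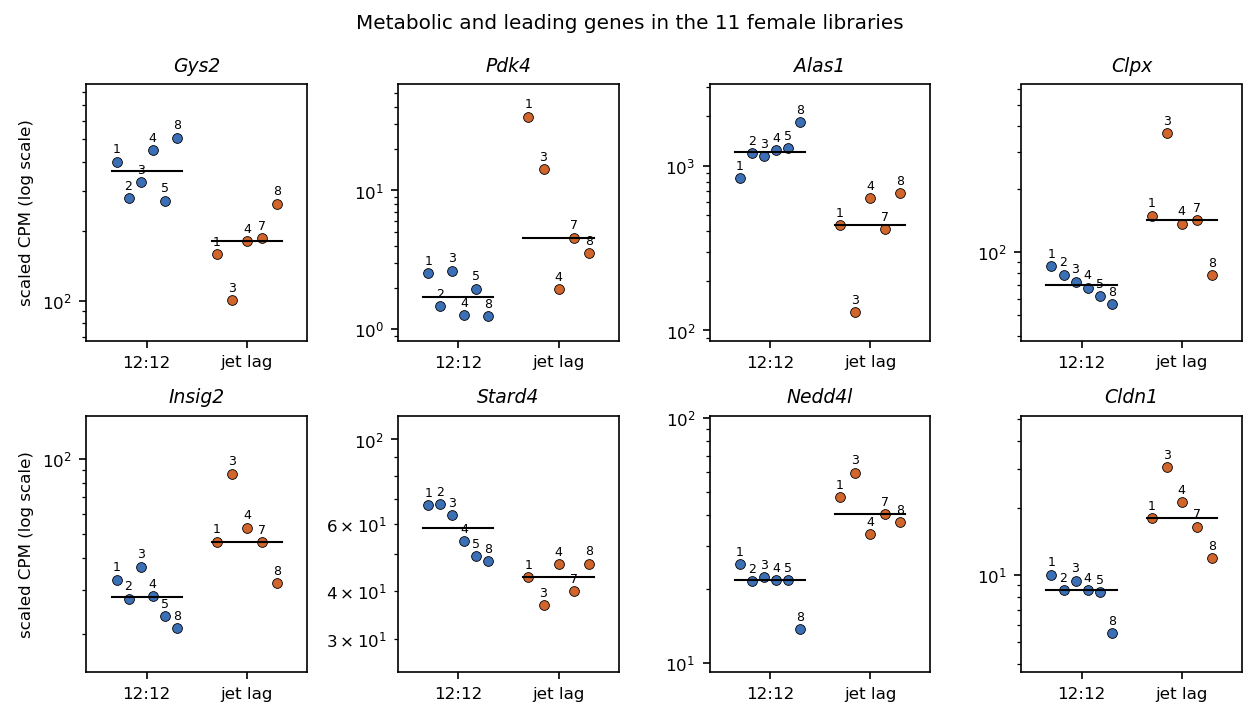
Levels (TMM-scaled CPM, log axes) of 6 metabolic genes and of Nedd4l and Cldn1 in the 6 12:12 libraries (blue) and the 5 jet lag libraries (orange), numbered as in the labels. Horizontal bars are group medians. Gys2, Alas1 and Stard4 have every jet lag point below the controls, Nedd4l and Cldn1 every one above, and Pdk4, Clpx and Insig2 have 1 jet lag point among the controls.

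With no gene past the threshold by edgeR, the leading genes are given as the 15 higher and the 15 lower of smallest p with a mean of at least 1 CPM, a choice made after their values were seen. The higher 15 had log2 fold changes of 0.45 to 1.22 and adjusted p-values of 0.0761 to 0.116, and DESeq2 called all of them. In 11 of them the groups did not overlap. Over all genes DESeq2 called 0.605% higher, and the groups were apart in 0.702%. As the 15 were picked by p on these same libraries, neither count is separate support. Nedd4l, a ubiquitin ligase gene of ion channel turnover, had the smallest p. It was at 25.2, 21.5, 22.5, 21.8, 21.8 and 13.8 CPM in the controls and at 47.5, 59.8, 33.5, 40.5 and 37.5 CPM under jet lag, all above the controls (1.05, SE 0.16, adjusted p = 0.0761 by edgeR, 9.24e-06 by DESeq2). Cldn1, the tight junction gene, was at 5.50 to 10.1 CPM against 18.0, 30.4, 21.2, 16.5 and 12.0 CPM, also apart (1.22, SE 0.21, adjusted p = 0.101). Eps8l2, a gene of actin remodelling, was at 11.6 to 22.1 CPM against 39.2, 55.6, 32.3, 39.4 and 28.9 CPM (1.00, SE 0.18). The noncoding gene B230206H07Rik overlaps it and had 0.98, so reads of the shared stretch cannot be told apart.

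The ubiquitin ligase gene Trim2 had 0.85 (SE 0.13), the carbonic anhydrase gene Car14, which overlaps Aph1a, 0.54 (SE 0.09), and the membrane protein gene Mpzl1 1.21 (SE 0.21), each with all 5 jet lag livers above the controls. The peroxisomal acyltransferase gene Acnat2 had 0.72 (SE 0.13) and Acox2, a peroxisomal oxidase gene of bile acid synthesis, 0.45 (SE 0.09). Acox2 was at 116 to 152 CPM against 189, 196, 168, 205 and 184 CPM, with no overlap. Among the rest were Baiap2, Map4k4, the endocytic scaffold gene Itsn1, the cGMP phosphodiesterase gene Pde9a, the phosphate and urate transporter gene Slc17a1 and the calcium pump gene Atp2b2, at 0.46 to 1.01.

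The 15 leading lower genes had log2 fold changes from -0.42 to -1.54 and adjusted p-values of 0.101 to 0.122, and DESeq2 called all of them. The groups were apart in 14, all but Gnpnat1. Over all genes DESeq2 called 0.464% lower, and the groups were apart in 0.534%. These 15 were picked by p in the same way, so neither count is separate support. Fam102a, with the smallest p, was at 21.2, 24.1, 23.7, 23.1, 31.8 and 39.3 CPM in the controls and at 17.1, 12.0, 15.9, 15.2 and 14.9 CPM under jet lag (-0.86, SE 0.15, adjusted p = 0.101). The jet lag livers lay close together here, library 8 included. Lrp4, a receptor of the low density lipoprotein receptor family, was at 54.8 to 75.2 CPM against 28.8, 21.9, 35.8, 37.3 and 50.9 CPM (-0.90, SE 0.17, adjusted p = 0.116). Inhbe, which encodes the liver hormone activin E, was at 21.8 to 40.5 CPM against 10.8, 13.2, 18.6, 19.8 and 13.0 CPM, and all 5 lay below the controls (-0.91, SE 0.18, adjusted p = 0.116).

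Ak4, a gene of nucleotide phosphate exchange in mitochondria, was at 3.47 to 6.13 CPM against 2.40, 1.95, 2.28, 2.62 and 3.32 CPM (-0.85, SE 0.18), with no overlap. Esrra, the gene of a nuclear receptor that drives mitochondrial genes, was at 31.5 to 40.4 CPM against 21.5, 25.9, 26.7, 19.0 and 28.0 CPM (-0.55, SE 0.11). The channel gene Hcn3 differed most (-1.54, SE 0.31), at 3.91 to 13.4 CPM against 1.57 to 3.23 CPM, and its span overlaps the pyruvate kinase gene Pklr, which had -0.36 (SE 0.18). Among the others were Tgm1, a transglutaminase gene, the p38 kinase activator Map2k3, the phosphodiesterase gene Gde1, Lonrf1, Gnpnat1, a gene of amino sugar synthesis, the tetraspanin gene Tspan4, 0610031O16Rik and the spliceosome gene Txnl4a, at -0.42 to -0.92. Tspan4 overlaps Chid1 and 0610031O16Rik overlaps Adh7.

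Markers of the other cell types of the liver were given beside these values. Of 20 endothelial markers 19 had positive log2 fold changes (median 0.24) and of 18 stellate cell and fibroblast markers 16 (median 0.16), with 8061 of all 15533 genes positive (median 0.0083). At an unadjusted p under 0.05 by edgeR were 2 and 5 of them, a level that 10.2% of all genes reached, and none passed adjustment. Their sums ran from 383 to 757 CPM under 12:12 lighting and from 617 to 790 CPM under jet lag for endothelium, and from 385 to 641 and from 581 to 703 CPM for stellate cells. The 17 macrophage markers summed to 580.4 to 927 against 706 to 979 CPM, with 16 positive. The 20 hepatocyte identity genes summed to 165050 to 179689 against 152160 to 176913 CPM, with 15 negative (median -0.066) and none at an unadjusted p under 0.05. Of 28 interferon response genes 24 were positive (median 0.14), and of 34 genes of the MYC and ribosome biogenesis list 27 were negative (median -0.11). In each of these lists 3 genes had an unadjusted p under 0.05, near the 10.2% of all genes. In bulk RNA fewer cells of a type and less RNA per cell cannot be told apart, and the part of these markers in the gene values above was not tested.

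Males chosen by the same Cd79a limit, 4 under 12:12 lighting and 3 under jet lag, gave a comparison that shares no library with the females, with the spread estimated in 1 fit over both sexes. There 219 of 16431 genes (1.33%) passed by edgeR. All 15 leading higher genes of the females were higher in the males as well, 8 of them past the threshold there (Nedd4l, Car14, Acnat2, Cldn1, Eps8l2, Pde9a, Atp2b2 and Acox2), and 14 of the 15 lower genes were lower, 4 past it (Fam102a, Lrp4, Ak4 and Lonrf1). Txnl4a was the exception, at 0.13 in males. Over all genes the sign was shared by 54.3% of the 8061 higher and 55.1% of the 7472 lower genes of the females. Of the genes DESeq2 called in females, 91 of 94 higher and 61 of 72 lower ones had the same sign in males, 41 and 14 of them past the threshold there by edgeR.

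**Figure D5:**
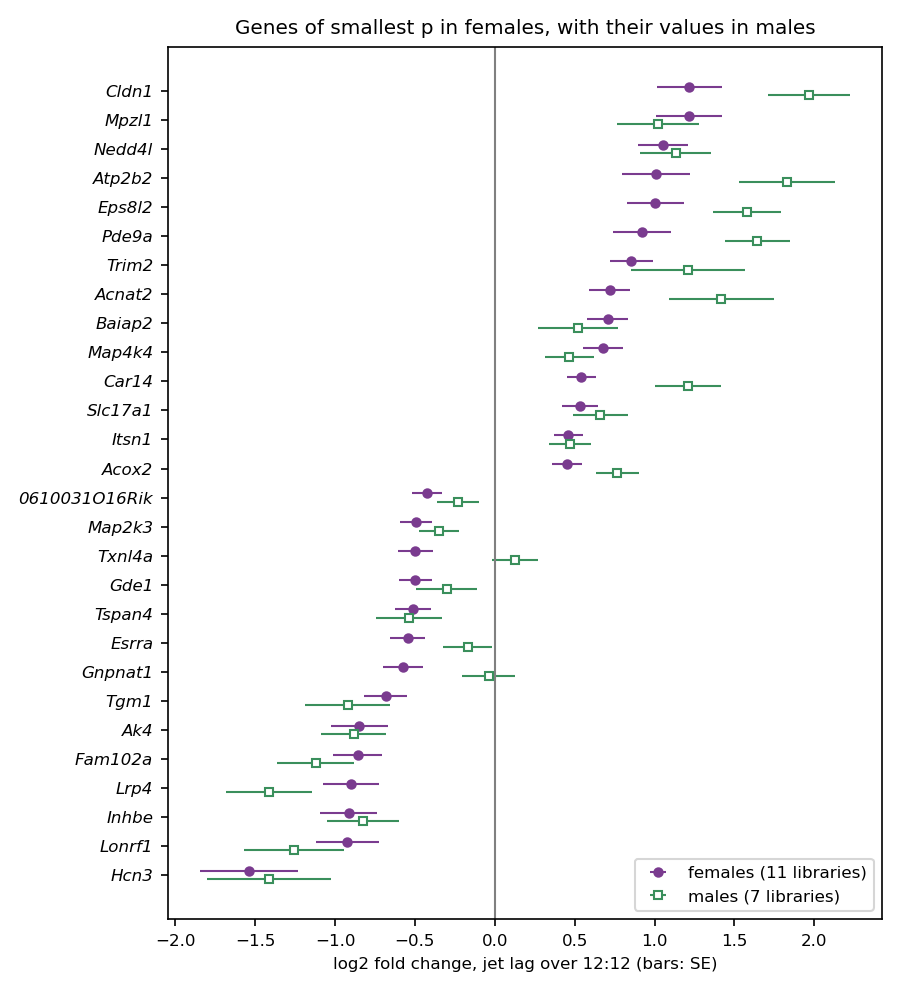
Log2 fold change of jet lag over 12:12 lighting (horizontal axis) for 28 of the 15 higher and 15 lower genes of smallest p in the 11 female libraries (filled circles) and in the 7 male libraries under the same Cd79a limit (open squares). Bars are standard errors. The female and male points lie on the same side of 0 for 27 of the 28 genes, all but Txnl4a.

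In the males 6 of the 26 clock genes passed by edgeR, against 1.33% of all genes. Arntl was at 1.24 ± 0.386 (SD, n = 4) against 16.2 ± 10.6 CPM (SD, n = 3) there, a log2 fold change of 3.70 (SE 0.86, adjusted p = 0.0466), close to the 3.57 of the females. Nampt was at 119.9 ± 31.4 against 42.6 ± 16.7 CPM (-1.49, SE 0.27, adjusted p = 0.00985). Wee1 had -2.09, Por -1.37, Hlf -0.77 and Rgs16 -4.06, each past the threshold. These sizes exceeded those of the females, but the genes were named because they passed in males. The difference itself passed for 0% of genes. None of 16431 passed the interaction of sex and lighting by edgeR (smallest adjusted p 0.129, 1440 at an unadjusted p under 0.05), limma-voom called 0 and DESeq2 9. The interaction, females minus males, was 0.87 (SE 0.34, adjusted p = 0.524) for Nampt, 0.78 (SE 0.27, adjusted p = 0.478) for Por, 3.87 (SE 1.00, adjusted p = 0.461) for Rgs16, -1.08 (SE 0.32, adjusted p = 0.465) for Insig2 and -0.14 (SE 1.09, adjusted p = 0.978) for Arntl.

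The response was also set against that of the 5 females above the limit, 2 under 12:12 lighting (Cd79a 66.1 and 105 CPM) and 3 under jet lag (14.5, 31.4 and 62.7 CPM). The controls among them held more B-lineage RNA than the jet lag livers, and lighting and this load cannot be told apart there. The interaction passed for 4 of 17290 genes (0.0231%) by edgeR, and 2316 had an unadjusted p under 0.05. This count turned on single libraries: it was 99 and 210 without 12:12 library 6 or 7, 255 and 140 without jet lag library 5 or 6, and 0 to 2 without any other. Slc1a2, a glutamate transporter gene of pericentral hepatocytes, was at 173 to 217 CPM against 137 to 193 CPM in the kept females (CPM scaled over all 16 females here), but at 50.8 and 53.2 against 93.9 to 123 CPM in those left out (interaction -1.31, SE 0.19, adjusted p = 0.0298). The kinase gene Prkd3 showed the same pattern (-1.08, SE 0.16), with 137 to 158 against 124 to 145 CPM in the kept females and 47.0 and 63.0 against 101 to 111 CPM in the others. Mir8114 (-2.06, SE 0.32) overlaps the glutamine synthetase gene Glul, and its reads cannot be told from those of that gene. The raft protein gene Rftn1, at 15.5 and 16.4 against 4.04 to 7.81 CPM in the females left out, had 1.68 (SE 0.28, adjusted p = 0.0449). Arntl in the females left out was at 2.56 and 5.46 against 7.51 to 17.4 CPM (1.49, SE 0.98), with an interaction of 2.07 (SE 1.14, adjusted p = 0.465).

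Myc, whose counts can hold reads of the transgene as well as of the mouse's own gene, was at 4.87 to 14.9 CPM under 12:12 lighting and 3.86 to 13.0 CPM under jet lag (-0.20, SE 0.39, adjusted p = 0.908). Jet lag libraries 7 and 8, at 3.86 and 3.92 CPM, lay below every control, and libraries 1, 3 and 4 lay among them. The sign of the Myc difference turned without 12:12 library 1 (0.07). In the kept males Myc had -1.72 (adjusted p = 0.247), with an interaction of sex and lighting of 1.52 (SE 0.86, adjusted p = 0.630). Cd79a, which chose the libraries, had -0.10 between the lightings.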

How the data were processed

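Liver RNA of 26 Eµ-MYC mice was sequenced from stranded mRNA libraries on a DNBSEQ instrument, per the labels' protocols. The authors deposited estimated counts per gene name. STAR, DESeq2 and mm10 are named per the submitters' processing notes. No source used here names the program that counted, its gene models or how it treated strand. The deposited counts write 0.015 in place of 0 (45.8% of cells), which was read as 0. A further 1.44% of cells held fractions (tolerance for whole 1e-06), which were rounded. Counts of lines with the same name were summed (36930 lines, 36883 names). Normalized values and the authors' own comparison table were not used here.

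The members and gene lists were chosen with earlier results of these data known. Kept females had under 8 CPM of Cd79a without TMM scaling. Genes were filtered with filterByExpr (count minimum 10), scaled by TMM (factors 0.962 to 1.04), and tested two-sided with edgeR 4.0.16 quasi-likelihood fits in R 4.3.3, without covariates and with Benjamini-Hochberg adjustment and a threshold of 0.05. DESeq2 1.42.0 and limma 3.58.1 (voom) were alternatives, as were other filters and scalings, other Cd79a limits, all 16 females, kept libraries of both sexes, a replicate block and leaving out each library. Interactions were fitted over the kept females and males and over all females. Log2 CPM used a prior count of 2.

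Named genes were to be those called, the 15 of smallest p in each direction among genes that average 1 CPM or more, and up to 4 per list. None passed, so the same ranks were used without the threshold, and some of them are not reported here. List members were named where DESeq2 called them or where their unadjusted p was under 0.05. The 42 lists hold 750 entries, of which 746 were found, 6 by synonym. Positions are from RefSeq on GRCm38.p6, matched by symbol for 29178 of the 36883 names. On simulated counts of the female comparison 15349 genes were tested, with 50 changed per fold size, all averaging 1 CPM or more. The test recovered 42% of 1.5-fold, 94% of 2-fold and 100% of 3-fold and 4-fold changes, with 11 unchanged genes called. Changes in genes below 1 CPM were not simulated. The simulation gave both lightings the same spread per gene, whereas most clock genes here spread more under jet lag. The recovered shares are therefore not the power of the test in the real libraries. The smallest chi-square between libraries of a group was 34.9 per degree of freedom, so none was counted as a copy. Intervals and floors cover counting error only.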

Additional observations from a re-analysis of the deposited data

Results flagged for a closer look

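In 13 of 142 groups of libraries 1 library stood apart from the rest of its group by Dixon's criterion. Chance meets it in about 1 in 20 groups if values are normal and groups independent. Here CPM were used without logarithms, and the genes were picked and share the same libraries, so 13 cannot be read against that rate. Jet lag library 3 stood apart for Arntl (33.8 CPM), Npas2 (8.64 CPM) and Clpx (369.7 CPM), where it was the highest, and for Nr1d2 (17.4 CPM), where it was the lowest. Jet lag library 8 was high for Ciart (20.9 CPM). Among the controls, library 8 was low for Nedd4l (13.8 CPM), Cldn1 (5.50 CPM) and Eps8l2 (11.6 CPM) and high for Hlf (33.8 CPM) and Hcn3 (13.4 CPM). Control library 4 was high for Dbp (215 CPM) and Usp2 (44.4 CPM), and control library 1 was low for Map4k4 (12.7 CPM).

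In 4 genes the interaction of lighting and the Cd79a limit in females passed by edgeR, a count that turned on single libraries. Among the females left out, Cd79a was 66.1 and 105 CPM under 12:12 lighting and 14.5 to 62.7 CPM under jet lag. Lighting and B-lineage load cannot be told apart there. The interaction, kept females minus those left out, was 1.68 for Rftn1, -1.31 for Slc1a2, -1.08 for Prkd3 and -2.06 for Mir8114 on the log2 scale. In the kept females alone these genes had 0.27, -0.22, -0.13 and -0.19, and in those left out -1.42, 1.09, 0.94 and 1.86.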

How the results depend on the processing

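The count of genes past the threshold in the kept females was 0 by edgeR. It was 9 with no filter on low counts, 166 by DESeq2, 13 with the kept libraries of both sexes in 1 fit, 14 with all 16 females and 73 with all 16 females and log2 Cd79a as a covariate. It stayed at 0 with DESeq2 size factors, a mean of at least 1 CPM as filter, limma-voom and a fit without robust shrinkage. A Cd79a limit of 4 CPM kept the same 11 libraries, and one of 2 CPM left 0, so it was not run. Leaving out each library gave 0 to 36, with 36 without jet lag library 8. The difference between the sexes passed for 0 genes, for 9 by DESeq2, for 1 with no filter on low counts and for 0 to 6 when each library was left out (6 without jet lag library 3). The difference by the Cd79a limit passed for 4 genes, for 318 by DESeq2 and for 0 to 255 when each library was left out. The median of the clock genes, -0.55, ran from -0.72 to -0.45, and the median ratio of their SDs, 2.50, from 1.39 to 3.18, when each library was left out. This last range was computed after the data were seen. The cause of these differences was not tested.

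With the replicate number as a block (replicate block), 17 genes passed in the kept females, 0 in the difference between the sexes and 0 in the difference by the Cd79a limit. Same-numbered libraries correlated by -0.12, 0.05, -0.12 and 0.0029 (numbers 1, 3, 4 and 8). Libraries of different numbers correlated by -0.20 to 0.31. Whether the numbers pair the animals cannot be told from so few values.

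Of the values of single named genes under alternatives, 1517 kept their sign and side of the threshold, 122 passed it and 11 turned sign. With all 16 females Mir8114 had 0.022, Rftn1 -0.60 and Rora 0.039. With the Cd79a covariate Mir8114 had 0.27, Prkd3 0.10, Rftn1 -0.058, Rora 0.080 and Slc1a2 0.037. Myc had 0.071 without 12:12 library 1, and Rgs16 had 0.049 without 12:12 library 3 and 0.12 without jet lag library 3, within a range from -0.42 to 0.12 when each library was left out. Genes listed at few counts, such as Npas2 in the controls, are limited by depth, as 3 counts correspond to up to 0.0641 CPM.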

Other observations

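Genes of drug metabolism leaned lower under jet lag. Of 30 such genes 22 had negative log2 fold changes (median -0.11), against 7472 of all 15533 genes (median 0.0083). At an unadjusted p under 0.05 by edgeR 9 were lower and 0 higher (10.2% of all genes in either direction), and none passed adjustment. Cyp2a5, a nicotine and coumarin hydroxylase gene, was at a median of 2828 CPM under 12:12 lighting and 1263 CPM under jet lag (-0.88, SE 0.29, adjusted p = 0.330) and had -1.60 in the kept males (adjusted p = 0.0112). Its near-identical neighbour Cyp2a4 had -0.60 (SE 0.24), and how the authors' counting split reads between the pair is not known here. Cyp2e1, the ethanol oxidizing P450 gene of pericentral hepatocytes, had -0.35 (SE 0.12). Of 19 pericentral and Wnt linked genes 15 were negative (median -0.14), 1 higher and 4 lower at that level.

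Single genes of other lists passed by DESeq2. Ccne1, the cyclin E1 gene, was at 0.92 to 2.73 CPM under 12:12 lighting and at 0.554, 0.244, 0.786, 1.16 and 0.820 CPM in jet lag libraries 1, 3, 4, 7 and 8 (-1.40, SE 0.33, adjusted p = 0.150 by edgeR, 0.00500 by DESeq2), and the proliferation list as a whole had 15 of 24 values above 0. Srm, the spermidine synthase gene of the MYC and ribosome biogenesis list, had -0.67 (SE 0.18) and Tars, a threonyl-tRNA synthetase gene, 0.52 (SE 0.13). Ugt2b38, a male-biased glucuronosyltransferase gene, had -0.58 (SE 0.15) in females and 0.08 in males. No gene passed the interaction of sex and lighting by edgeR, and for Ugt2b38 it was -0.67 (SE 0.25, adjusted p = 0.513). The genes that follow did not pass by DESeq2 and had an unadjusted p under 0.05 by edgeR. Cdkn1a, the p21 gene of both the p53 and glucocorticoid lists, had 1.46 (SE 0.45, adjusted p = 0.278), and Zbtb16, a glucocorticoid-induced factor, had 1.49 (SE 0.45, adjusted p = 0.301) in females and -0.99 in the kept males. The glucocorticoid list had 10 positive and 10 negative values, and the p53 list 12 and 6. The immediate early genes Fos and Egr1 had 0.58 (SE 0.24) and 0.95 (SE 0.36), in a list with 7 positive and 5 negative values. The 15 of that list summed to 95.4 to 147 CPM under 12:12 lighting and 124 to 171 CPM under jet lag.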
